A study of Caenorhabditis elegans with 2 samples.

Results

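MicroRNA genes are described here in a map of the sites occupied by eGFP-tagged CEH-28 in Caenorhabditis elegans larvae. They were taken as every gene annotated as miRNA by Ensembl on WBcel235, the assembly also known as ce11, which gave 261 of 46890 annotated genes on the 6 chromosomes. The rule uses position alone and no measured value. Each gene was examined with 500 bp and with 2000 bp on either side. Chromatin immunoprecipitation and sequencing was done on whole L3 larvae of strain OP241, whose genotype is unc-119(ed3) III; wgIs241, with both sexes pooled. The strain was obtained from the CGC, its age is given as unknown, and both samples carry the same transgene and mutation. The 2 biological replicates form 1 group, and nothing was set against it. All comparisons are therefore between features of the genome, and no test over samples was possible.

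MicroRNAs are short RNAs that pair with messenger RNAs and reduce their translation or stability. A long primary transcript is cut in the nucleus to a hairpin, which is cut again in the cytoplasm, and one of its arms is loaded into an Argonaute protein. The seed, at bases 2 to 8 of the mature RNA, sets most of the pairing, so microRNAs with the same seed are grouped as families. Worm microRNA genes stand alone or in clusters that may share a primary transcript, and many lie in introns of protein-coding genes. The tagged factor CEH-28 belongs to the NK-2 group of homeodomain proteins and is best known from M4, a motor neuron of the pharynx.

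The mir-51 family, which held the strongest thresholded summit within 500 bp of a microRNA gene, shares the seed ACCCGUA, is needed in the embryo and has a known part in attachment of the pharynx. The mature arms are shown 5' to 3' with the seed in capitals, to show which genes belong together. They were read from the genome at the annotated positions, on chromosome X for mir-54, mir-55 and mir-56 and on chromosome IV for the others.
mir-54: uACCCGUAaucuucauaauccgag
mir-55: uACCCGUAuaaguuucugcugag
mir-56: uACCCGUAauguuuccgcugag
mir-52: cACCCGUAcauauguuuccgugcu
mir-53: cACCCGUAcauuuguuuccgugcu
mir-51: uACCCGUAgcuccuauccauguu

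Other seeds tied genes with a summit to relatives without one. The seed GAGGUAG of the let-7 family, which times larval stages, is shown for mir-241 and mir-48 on chromosome V and mir-84 on chromosome X. CCCUGAG is shared by mir-237 on chromosome X and lin-4 on chromosome II, a timing microRNA that acts early in larval life. AUGACAC, shared by mir-229, mir-63, mir-64, mir-65 and mir-66, is shown for mir-229 on chromosome III. The mature arms of mir-58a on chromosome IV and mir-80 on chromosome III, both of the bantam-related mir-58 family, do not share a full seed: that of mir-80 is also carried by mir-58b, mir-58c, mir-81, mir-82 and mir-2209a.
mir-241: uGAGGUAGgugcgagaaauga
mir-48: uGAGGUAGgcucaguagaugcga
mir-84: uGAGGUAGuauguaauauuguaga
mir-237: uCCCUGAGaauucucgaacagcu
lin-4: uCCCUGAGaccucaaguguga
mir-229: aAUGACACugguuaucuuuuccaucg
mir-58a: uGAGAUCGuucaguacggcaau
mir-80: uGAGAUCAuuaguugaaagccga

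Of the 261 genes, 28 had a summit of the thresholded peak list within 500 bp (10.7%, 95% Wilson interval 7.53% to 15.1%). The list holds 3531 peaks that passed a threshold on agreement between the replicates. Windows of 1095 bp, the median length of a microRNA gene with its flanks, were laid end to end over the genome for comparison, and 3.63% of 91569 held a summit. The 5' ends of protein-coding genes had a summit within 500 bp in 8.74% of 19973 genes. Among other small RNA genes the share was 17.8% of 129 snRNA genes, 15.3% of 346 snoRNA genes and 12.7% of 612 tRNA genes. The interval for microRNA genes includes the values of protein-coding 5' ends and tRNA genes, and lies above that of genome windows. Intervals here cover counting error over genes or summits only, and genes of a cluster share summits.

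**Figure D1:**
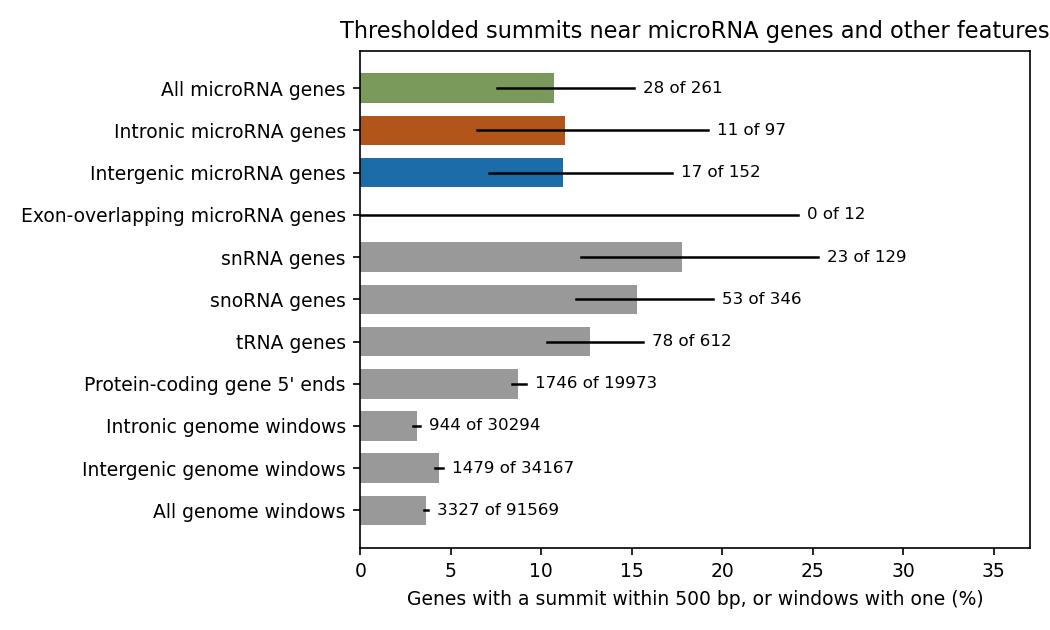
Share of microRNA genes (top 4 bars) and of other features with a thresholded summit within 500 bp, in percent. Lines are 95% Wilson intervals and the numbers give the count behind each bar. Intronic and intergenic microRNA genes had nearly the same share, 11.3% and 11.2%.

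The 28 genes lay within 500 bp of 27 distinct summits, in 30 combinations of gene and summit, because neighbours share summits and mir-58a and mir-52 have a pair each. Their signal, the value of the authors' peak caller, ran from 66.0 to 367 with a median of 123. The other thresholded peaks had a median of 109, and the list as a whole ran from 65.9 to 5643. The quartiles of the list lay at signals of 81.2 and 185, and 8 of the 27 summits were above the upper one and 5 below the lower one. The strongest ranked 320 of 3531.

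Among the mir-51 family 4 of 6 genes had a summit within 500 bp and 6 of 6 within 2000 bp. Of all 261 microRNA genes 10.7% had one within 500 bp and 27.2% within 2000 bp. Genome windows of these sizes held one in 3.63% and 11.9% of cases. At mir-54 and mir-55, on chromosome X, the peak from 13145218 to 13145525 had a signal of 367 in the pooled data, with 171 in replicate 1 and 203 in replicate 2. Its summit lay 271 bp upstream of mir-54, 441 bp upstream of mir-55 and 578 bp from mir-56, which was therefore outside the narrower window. The antisense gene mir-55b overlaps mir-55 and lay within 446 bp of the same summit. At mir-52, on chromosome IV, the peak from 14033717 to 14034205 had a pair of summits, 105 bp upstream of the gene with a signal of 202 and 7 bp beyond its end with a signal of 107. Replicate 1 had only 1 summit within 500 bp, inside the gene and 36 bp from its 5' end, with a signal of 108. Replicate 2 had 2, the stronger one 105 bp upstream with a signal of 103. The pair was thus not seen in replicate 1. At mir-53, on chromosome IV, the peak from 11027579 to 11027978 had a signal of 141, with 59.7 in replicate 1 and 91.3 in replicate 2, and its summit lay 88 bp upstream. Its cluster partner mir-51 was 1667 bp from that summit. The 4 genes were thus reached by 3 separate peaks. Within 2000 bp mir-56 and mir-51 were reached only by peaks already counted, those of mir-54 and mir-53.

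In the mir-58 family, which is abundant and is known to act on TGF-beta signalling, 2 of the 5 genes matched to the listed names had a summit within 500 bp. Over all 261 microRNA genes this share was 10.7%. mir-58c, which carries the seed of mir-80 and was not matched, was 28735 bp from one. mir-58a, in an intron of Y67D8A.2, lay between 2 summits. The upstream one, 395 bp before the gene, had a signal of 214 and the downstream one, 449 bp beyond its end, had 163. The best peak there had a signal of 88.2 in replicate 1 and 126 in replicate 2. mir-80, linked to dietary restriction, had a summit 337 bp upstream with a signal of 87.8, and its peak ranked 3982 in replicate 1 and 1635 in replicate 2. The intronic genes mir-81 and mir-82, in gid-2, had their nearest thresholded summits at 1597 bp and 2482 bp, and mir-58b at 28562 bp.

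Timing microRNAs were reached at 2 of 6 genes, where 10.7% of all 261 microRNA genes had a summit within 500 bp. mir-241, which acts with mir-48 and mir-84 at the passage to the L3 stage, had a summit 434 bp upstream on chromosome V, in the peak from 14366517 to 14366916. Its signal was 162 in the pooled data, 75.2 in replicate 1 and 86.1 in replicate 2. mir-237 had a weak summit 326 bp beyond its end with a signal of 66.0, just over the lowest value of the list, and that summit lay inside a tRNA gene. The best peak near mir-237 ranked 5189 in replicate 1 and 3042 in replicate 2. let-7 itself, whose annotated gene of 1732 bp includes a primary transcript, was 1858 bp from the nearest thresholded summit, and its best pooled peak ranked 5561. mir-48 was 2208 bp, mir-84 2363 bp and lin-4 16151 bp from one.

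Of the 4 listed genes of the mir-64 family 1 had a summit within 500 bp and 4 within 2000 bp. All 4 were reached by the same summit. Of all 261 microRNA genes 10.7% had one within 500 bp and 27.2% within 2000 bp. mir-63 on chromosome X, which carries the same seed and was not listed, was 11783 bp from a thresholded summit. The 4 listed genes lie in a row in an intron of gcn-1 on chromosome III, in the order mir-229, mir-64, mir-65 and mir-66. The summit 309 bp upstream of mir-229 had a signal of 201, with 92.3 in replicate 1 and 111 in replicate 2. Among stress and lifespan microRNAs 2 of 6 had a summit within 500 bp, beside the 10.7% of all microRNA genes. mir-71, which lengthens life in the worm, had one 418 bp upstream with a signal of 66.4, and mir-228 one 416 bp upstream with a signal of 68.0. The lowest signal of the list was 65.9. mir-34, a relative of the vertebrate miR-34 genes, had its nearest thresholded summit at 1877 bp with a signal of 290.

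The remaining listed groups had no gene with a summit within 500 bp, where 10.7% of all 261 microRNA genes had one. The mir-35 family, needed for embryogenesis, had 0 of 8 within 500 bp and 0 of 8 within 2000 bp, and 7 of its genes sit together at 1 locus on chromosome II. mir-1 of muscle, mir-124 of sensory neurons and lsy-6, which sets left and right identity of the ASE taste neurons, were 4931 bp, 14353 bp and 34031 bp from a thresholded summit. In the mir-2 family 0 of 4 genes had one within 500 bp. Taking a count of 0 to allow up to 3 counts, 0 of 8 allows a share of up to 37.5% and 0 of 4 up to 75%, in counting error only. This rough limit counts genes as separate, so it is too narrow for the mir-35 family, with 7 of its 8 genes at 1 locus. No difference from the other families was tested.

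The remaining genes with a summit were of mixed kinds. mir-1824, in an intron of Y87G2A.18 on the opposite strand, had a signal of 220, with 112 in replicate 1 and 106 in replicate 2. mir-76 on chromosome III had a signal of 212, with 94.7 in replicate 1 and 117 in replicate 2, and its summit lay 136 bp beyond the gene. mir-5595, in an intron of nurf-1, a chromatin remodelling subunit gene, had 190, and mir-5549 had 189 with a summit 27 bp upstream. mir-269 had 138, the overlapping pair mir-8186-1 and mir-8186-2 shared a summit of 126, mir-4929 had 123 and mir-4920 had 122. mir-238 had 111, mir-83, which acts in gonad migration, had 99.9, mir-2214 had 99.6 and mir-79 had 92.7. The lowest were mir-5551 at 84.6, mir-73 at 71.3 and mir-271 at 66.4.

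**Figure D2:**
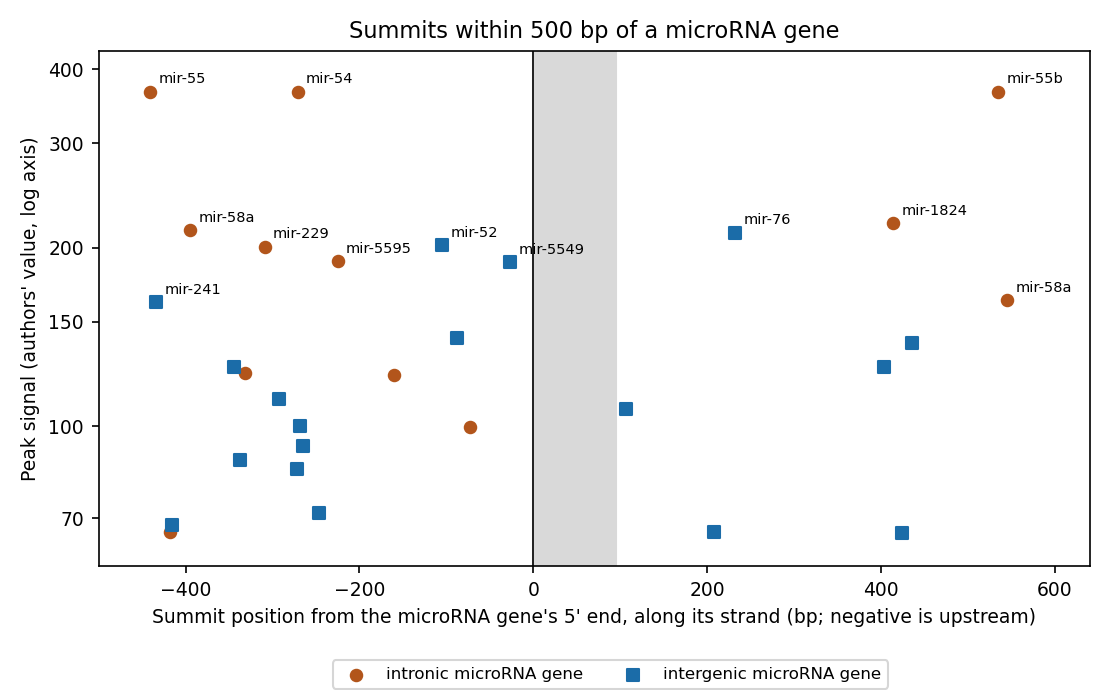
Peak signal (log axis) against the position of each thresholded summit from the 5' end of the microRNA gene, along its strand, for 30 combinations of gene and summit. The grey band is the median gene length of 95 bp, and names are given from a signal of 160 upward. Of these, 21 lie upstream and 9 downstream, and none falls inside a gene.

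Summits lay upstream of the annotated gene in 21 of 30 combinations (70%), downstream in 9 and inside the gene in 0. The median gap was 300.5 bp, and 4 lay within 100 bp. At 2000 bp the upstream share was 63.5% of 85 combinations. Among summits outside promoter windows of protein-coding genes 15 of 20 combinations were upstream, and in those windows 6 of 10. The annotated gene is mostly the hairpin, so its 5' end is not the start of the primary transcript, and these distances are not distances from a start of transcription. Just inside the window lay the downstream summit of mir-58a, at 449 bp, and mir-55b, at 446 bp, while mir-4938 and mir-74 lay just outside, both at 524 bp, with signals of 88.4 and 71.3.

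Clusters were read as units, since genes in a row may share a primary transcript. Genes on 1 strand within 2000 bp of each other formed 22 clusters. Of these, 6 had a summit within 500 bp upstream of the first gene and 0 had one within 500 bp beyond the last. They were the clusters led by mir-54, mir-229, mir-241, mir-53, mir-238 and mir-73. A summit between the first and last gene occurred in 1, the cluster of mir-238 and mir-80, where it lay 337 bp upstream of mir-80. In the cluster of mir-54 the same summit also reached mir-55. The later genes mir-56, mir-64, mir-65, mir-66, mir-48, mir-51 and mir-74 had no thresholded summit within 500 bp although the first gene of their cluster had one. Their gaps ran from 524 bp at mir-74 to 2208 bp at mir-48, so this depends on the window and on their place in the row. For scale, 10.7% of the 261 single genes had a summit within 500 bp on either side, and 3.63% of genome windows of 1095 bp held one. No share was counted for stretches matched to the clusters, and no preference for the cluster start was tested. The grouping by strand was made after the values were seen.

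**Figure D3:**
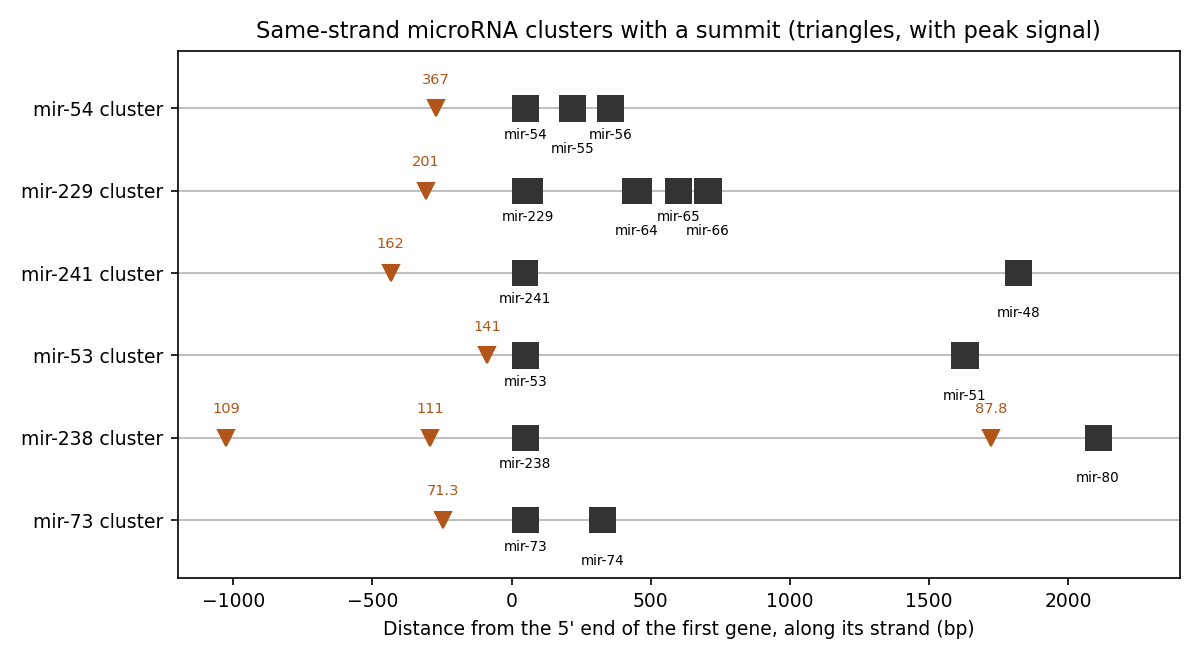
Maps of the 6 same-strand clusters, of 22, chosen for a thresholded summit within 500 bp upstream of the first gene. Boxes are microRNA genes, triangles are summits with their signal, and the axis is the distance in bp from the 5' end of the first gene along its strand. In each cluster a summit lies within 500 bp upstream of the first gene, from 88 bp at mir-53 to 434 bp at mir-241.

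Intronic and intergenic microRNA genes had nearly equal shares within 500 bp when all thresholded peaks were counted. Of 97 intronic genes 11 had a summit (11.3%, 95% Wilson interval 6.45% to 19.2%), where 3.12% of 30294 genome windows centred in introns did. Of 152 intergenic genes 17 had one (11.2%, 7.10% to 17.2%), where 4.33% of 34167 intergenic windows did. Intronic genes on the same strand as their host had 7 of 67 and those on the opposite strand 4 of 30. With peaks above the median signal only, 9 of 97 intronic genes had a summit (9.28%, 4.96% to 16.7%), where 1.60% of intronic windows did. Of the 152 intergenic genes 9 had one (5.92%, 3.15% to 10.9%), where 2.16% of intergenic windows did. The intervals overlap, and the difference was not tested. A further 12 genes overlapped an exon or an edge of a protein-coding gene, and 0 of them had a summit, which allows a share of up to 25%. At 2000 bp there were 71 genes in all (27.2%), where 11.9% of 24483 genome windows of that size held a summit. Of the intronic genes 28 had one (28.9%), where 11.9% of intronic windows did, and of the intergenic genes 40 (26.3%), where 11.0% of intergenic windows did. The strongest signals at each gene had a median of 201 over the 11 intronic genes and 111 over the 17 intergenic ones, with ranges of 66.4 to 367 and 66.0 to 212. The 3 intronic genes mir-54, mir-55 and mir-55b share 1 peak, which thus enters the intronic median 3 times.

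**Figure D4:**
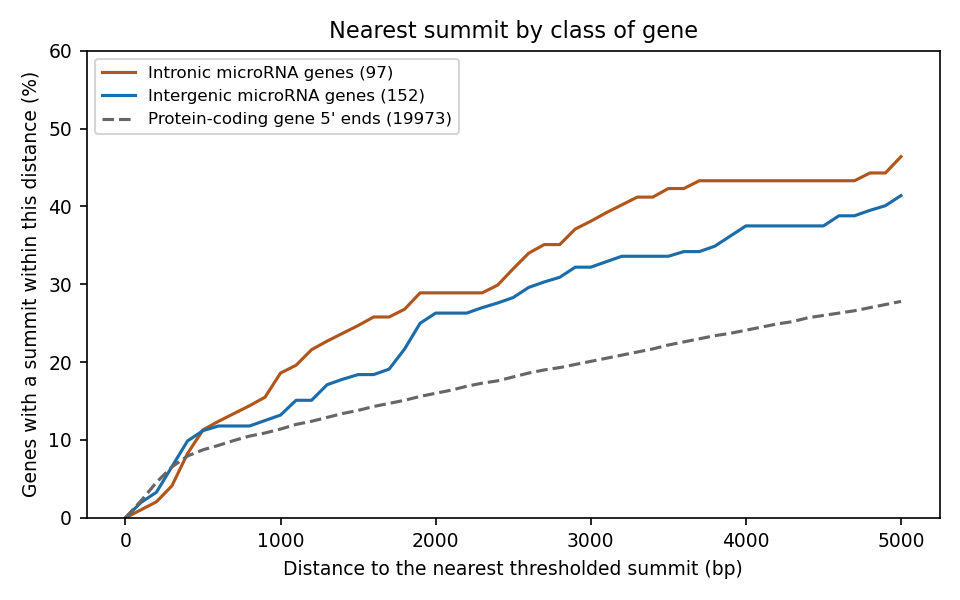
Percentage of genes with a thresholded summit within a given distance (bp), for intronic and intergenic microRNA genes and for 5' ends of protein-coding genes. The microRNA curves meet at 500 bp, at 11.3% and 11.2%, and the intronic one is higher at 1000 bp, at 18.6% against 13.2%. At 2000 bp they stand at 28.9% and 26.3%. Between 500 and 1000 bp the intronic curve gains mir-56, mir-64, mir-65 and mir-66, whose summits were already counted for other genes of their clusters. It also gains mir-5550, mir-4930 and mir-353, at 652, 951 and 985 bp.

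Between 500 and 2000 bp another 43 microRNA genes had a summit. Their strongest summits had signals of 66.0 to 756 with a median of 111, lay upstream of the gene in 28 cases and in a protein-coding promoter window in 22. Neighbouring genes shared them, so there were 32 distinct summits. The examples with the highest signals were chosen after their values were seen. mir-2216, in an intron of gmps-1, had the highest at 756, which ranked 83 of 3531. That summit lay 1798 bp upstream, in promoter windows of gmps-1 and cap-2. At mir-2221 on chromosome X the summit lay 1262 bp upstream with a signal of 564 and in no promoter window. mir-2212 and mir-1819 shared one of 515 at 1870 bp and 1996 bp upstream. The strongest peaks of this wider window thus exceeded the 367 of mir-54, and all of them lay over 1000 bp from the gene.

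By chromosome the share at 500 bp was highest on III, with 6 of 27 genes (22.2%), where 5.28% of genome windows on III held a summit. Chromosome IV had 8 of 50 (16.0%, windows 3.39%), I had 3 of 33 (9.09%, windows 4.84%), II had 4 of 49 (8.16%, windows 3.22%), X had 6 of 74 (8.11%, windows 3.28%) and V had 1 of 28 (3.57%, windows 2.49%). The Wilson intervals of these shares overlap, from 10.6% to 40.8% on III and from 0.633% to 17.7% on V. The share was above that of the windows on each chromosome, but the intervals for I and V include the share of the windows and that for II begins at it, at 3.22%.

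Most summits near microRNA genes were away from protein-coding promoters. A promoter window here runs from 1000 bp upstream to 200 bp downstream of an annotated 5' end. Such a window held 9 of the 27 summits, and 52.8% of the whole thresholded list. Intergenic microRNA genes had 5 of 17 summits in one and intronic ones 4 of 10. The 9 were near sma-10 for mir-269, nhr-97 for mir-5551, unc-78 for mir-271, rfc-4 and eef-1A.1 for mir-5549, gmeb-1 for the mir-8186 pair, nurf-1 for mir-5595, sph-1 for mir-4920, E01G4.3 for mir-4929 and Y87G2A.18 with Y87G2A.1 for mir-1824. At mir-269 the summit lay 85 bp upstream of the 5' end of sma-10, a gene of the TGF-beta pathway of body size, and 342 bp from mir-269. Whether these 9 summits act on any of the neighbouring genes was not tested. Of the 27 summits 1, that of mir-237, lay within 500 bp of a tRNA, snoRNA, snRNA or rRNA gene, as did 4.08% of the other 3504.

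Strong peaks were taken as the 3531 of highest signal in each replicate's relaxed list of 30000. Within 500 bp of a strong peak lay 28 microRNA genes in replicate 1, where 3.59% of genome windows held one, and 33 in replicate 2, where 3.62% did. In both replicates 23 genes had one. Of the 28 genes with a thresholded summit 22 had a strong peak in both replicates and 6 in 1 of them. Because the thresholded list was itself made by agreement between the replicates, such agreement at its genes is partly built in. The 6 genes strong in 1 replicate were mir-80, mir-228, mir-237 and mir-5551 in replicate 2, and mir-238 and mir-271 in replicate 1. Their peaks in the other replicate ranked between 3651 and 5189. The best summits of the replicates were within 50 bp of each other at 19 of 28 genes. At mir-71 and mir-73 they were different peaks, upstream of the gene in replicate 1 and downstream of it in replicate 2. At mir-237 the best summit of replicate 2 lay 584 bp from the 5' end of the gene, where the thresholded one lay 424 bp from it.

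**Figure D5:**
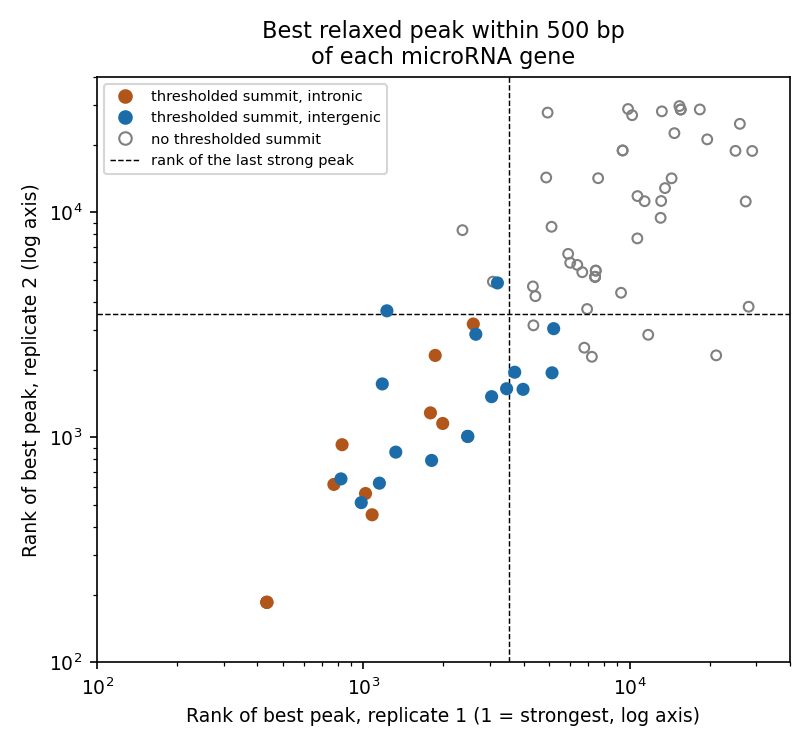
Rank of the best peak within 500 bp of each microRNA gene in the relaxed lists of replicate 1 and replicate 2 (log axes, 1 is the strongest), for genes with a peak in both. Filled points have a thresholded summit, and the dashed lines mark rank 3531. Points of genes that share a peak coincide, such as mir-54, mir-55 and mir-55b at ranks 434 and 185.

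Relaxed lists reached more genes, at a higher background. In the pooled list 104 of 261 microRNA genes had a summit within 500 bp (39.8%), where 26.7% of genome windows did. The counts were 107 in replicate 1, where 26.9% of genome windows held a summit, and 105 in replicate 2, where 26.8% did. In the pooled list a summit lay near 6 of 6 listed genes of the mir-51 family, 4 of 4 of the let-7 family, 4 of 4 of the mir-64 family, 5 of 5 of the mir-58 family and 2 of 2 of the lin-4 family. It lay near 5 of 6 stress and lifespan genes, 2 of 4 of the mir-2 family, 3 of 8 of the mir-35 family and 0 of 3 of mir-1, mir-124 and lsy-6. In replicate 1 alone mir-1 had a peak, at rank 25654. Some of these peaks stood far down the list, at rank 25157 of 30000 for mir-58b and rank 14879 for lin-4. Relaxed lists have a fixed length of 30000 and so include weak peaks, and the share of genome windows gives the level to read these counts against. Of genes without a thresholded summit, mir-74 was strong in both replicates, at ranks 2646 and 2873, through peaks that also lie near mir-73. These were different peaks, upstream of mir-74 in replicate 1 and downstream of it in replicate 2, so the replicates share no strong site there. Those strong in 1 replicate were mir-8209, mir-60, mir-45, mir-90, mir-4930 and mir-253 in replicate 2, and mir-2218a, mir-4938 and mir-239a in replicate 1.

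The sequence at these summits was counted on both strands within 50 bp. AATCGAT and AATCAAT are the words found most often at the summits of the map as a whole among those searched. One or the other lay at 7 of 27 summits near microRNA genes (25.9%, 95% Wilson interval 13.2% to 44.7%), at 1665 of 3504 other summits (47.5%) and in 6.35% of all genome windows of the same size. In windows 500 bp to either side one of them lay in 13.0% of 54 near microRNA genes and 12.2% of 7008 near other summits. AATCGAT alone lay at 2 of 27, those of mir-4920 and mir-271, and at 35.5% of the others, and AATCAAT alone at 5 of 27 and at 24.9% of the others. In all genome windows their shares were 2.37% and 4.19%. CTGCGTC lay at 2 of 27, those of mir-1824 and the mir-8186 pair, at 8.56% of the others and in 0.767% of all genome windows. GCGCAGGG lay at 0 of 27, at 0.457% of the others and in 0.0285% of all genome windows. TCAAGTG or TTAAGTG, letters known from NK-2 class binding sites, lay at 0 of 27, at 1.31% of the others and in 2.20% of all genome windows. With 27 summits these shares have wide intervals, and no difference was tested.

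Short words seen on reading the windows were then counted, so their counts are a description. GAGAGA lay at 11 of 27 summits near microRNA genes (40.7%), at 20.4% of the others and in 5.18% of all genome windows. TATAAA lay at 6 of 27 (22.2%), at 7.13% of the others and in 11.2% of all genome windows. The 6 were those of mir-2214, mir-80, mir-238, mir-58a, mir-5551 and mir-241. A match is a run of letters and does not show a bound factor. The windows of 81 bases around 6 of the summits are printed on the plus strand of ce11, with the words of the preceding paragraphs, GAGAGA with TATAAA and AATCGAT with AATCAAT, in capitals on either strand, because they show members with and without these words. In order they are chrX:13145325-13145405, chrIV:3232819-3232899, chrIII:2172103-2172183, chrV:14366677-14366757, chrIV:11027739-11027819 and chrIV:7841323-7841403.
mir-54 and mir-55: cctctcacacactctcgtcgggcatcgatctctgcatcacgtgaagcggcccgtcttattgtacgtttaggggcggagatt
mir-58a, upstream: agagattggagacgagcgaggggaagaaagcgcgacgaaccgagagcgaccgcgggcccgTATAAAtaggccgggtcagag
mir-229: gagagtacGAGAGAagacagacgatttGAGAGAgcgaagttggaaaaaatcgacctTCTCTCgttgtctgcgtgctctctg
mir-241: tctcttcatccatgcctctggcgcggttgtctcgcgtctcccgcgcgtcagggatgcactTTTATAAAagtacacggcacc
mir-53: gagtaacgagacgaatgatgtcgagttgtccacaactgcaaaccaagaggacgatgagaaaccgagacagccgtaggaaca
mir-83: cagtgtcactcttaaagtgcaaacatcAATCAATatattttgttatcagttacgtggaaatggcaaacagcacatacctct

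The strongest summit, at mir-54 with mir-55, and those of mir-1824 and upstream of mir-58a, next in signal, had 0 matches to AATCGAT or AATCAAT within 100 bp. mir-76, which followed them, had 3 within 50 bp, all AATCAAT. In the printed windows TATAAA lies on the side of the summit that faces mir-58a, and at mir-241 it lies on the side away from the gene. GAGAGA stands at 3 places in the window of mir-229. The windows of mir-53 and of mir-54 with mir-55 hold none of these words.

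Protein genes of the microRNA pathway, from a list of enzymes, Argonautes and cofactors, had promoter summits at 8 of 16 genes (50%), where 11.2% of 19973 protein-coding genes had one. Among genes that make microRNAs pash-1, the partner of the nuclear enzyme Drosha, had a signal of 109 with the summit 110 bp upstream, while drsh-1, which encodes Drosha, and dcr-1, which encodes Dicer, had none. Of the Argonaute genes alg-1 had a signal of 144, and alg-2 had none. ain-1, a GW182-type partner of Argonaute, had 440 with the summit 886 bp upstream, and its best peak ranked 319 in replicate 1 and 162 in replicate 2, and ain-2 had none. nhl-2, a cofactor that enhances microRNA activity, had 455 with the summit 825 bp upstream, and ranked 261 in replicate 1 and 174 in replicate 2. cgh-1, an RNA helicase gene, had 145 with the summit 763 bp upstream. vig-1 and tsn-1, found with the Argonaute complex, had 246 and 88.9. lin-28, which blocks processing of let-7, had 176 with the summit 3 bp inside the transcript. The nuclease genes xrn-1 and xrn-2, with paxt-1 and ebax-1, which act in turnover of microRNAs, had none. Here none means no thresholded summit. Except for dcr-1, each of these genes had a promoter peak in the relaxed list of either or both replicates, and such lists include weak peaks. The best ranked 3834, at drsh-1 in replicate 2, where replicate 1 gave rank 9002. At alg-2 the ranks were 4717 in replicate 1 and 4350 in replicate 2.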

How the data were processed

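ChIP-seq of 2 replicates of whole L3 larvae was available as peak lists in narrowPeak form. Each peak's signal value and −log10 q-value were deposited by the authors, and the sources used here name neither the peak caller nor the aligner, nor the scale of the signal. Per the file records deposited with the samples, a thresholded list and a relaxed pooled list were made from both replicates, and a relaxed list from each. Read depth is unknown, and the number of peaks limits precision. All lists used are on ce11, and the ce10 versions were not used.

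MicroRNA genes were read from Ensembl release 115, and 1 gene was named from RefSeq. Mature arms on chromosome I were not read, so shared seeds are given without those genes. Summits were counted within 500 bp and 2000 bp, with scipy 1.17.1, pandas 2.3.3 and numpy 2.4.6 under Python 3.11.15. Signals were compared and ranked within a list only. Genome windows of the same size, laid end to end, gave the background. Shares have 95% Wilson intervals, and a count of 0 allows up to 3 counts. With 1 group no test over samples was run. Counting was tested on simulated data. Every microRNA gene with a summit within 500 bp is named, as are members of the listed families and pathway genes. The members and lists were chosen with earlier results of these data known. The word TATAAA, the word GAGAGA, same-strand clusters, the division of names at 500, leaving out peaks with repeated intervals and the named genes between 500 and 2000 bp were chosen after the values were seen. Other alternatives were other windows, a stricter list, interval overlap, single replicates and loci.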

Additional observations from a re-analysis of the deposited data

How the results depend on the processing

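With the 3531 strongest peaks of one replicate in place of the thresholded list, genes within 500 bp numbered 28 to 33, intronic ones 12 to 14, intergenic ones 15 to 19 and genes within 2000 bp 69 to 73, where the thresholded list gave 28, 11, 17 and 71. With peaks above the median signal only, the counts were 18 in all, 9 intronic, 9 intergenic and 43 within 2000 bp. At 250 bp they were 9 in all, 3 intronic and 6 intergenic, and at 1000 bp 18 intronic. Fewer peaks and other windows change these counts by construction. AATCGAT alone lay at 2 summits, where either word lay at 7. Interval overlap, distinct loci, repeated intervals left out, 1000 bp for all and for intergenic genes, other word windows, and the upstream share at 2000 bp moved their values by no more than 1.5 times. No paired analysis was possible because there is 1 group. Depth could not be assessed from peak lists.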

Other observations

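The number in a microRNA gene's name follows the order of naming, and genes were divided at 500 after the values were seen. Of 120 genes numbered below 500, with the let, lin and lsy genes, 19 had a thresholded summit within 500 bp (15.8%, 95% Wilson interval 10.4% to 23.4%). Of 141 genes numbered 500 or above, 9 had one (6.38%, 3.39% to 11.7%). That interval includes the 3.63% of all genome windows that held a summit, and the interval for genes below 500 lies above it. Among intergenic genes the counts were 13 of 72 below 500 (18.1%) and 4 of 80 at 500 or above (5.0%), where 4.33% of intergenic windows held a summit. The interval for those 80 genes, 1.96% to 12.2%, includes the share of the windows. Among intronic genes the counts were 6 of 43 (14.0%) and 5 of 54 (9.26%), where 3.12% of intronic windows held a summit. A protein-coding promoter window held 2 of the 19 distinct summits near genes numbered below 500 and 7 of the 8 near genes numbered 500 or above. The difference was not tested.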
